A study of Mus musculus with 8 samples.

Results

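The genes described here are the calcium pumps of the sarcoplasmic reticulum (*Atp2a1*, *Atp2a2* and *Atp2a3*, which encode SERCA1, SERCA2 and SERCA3), their small inhibitors (*Sln*, sarcolipin, and *Pln*, phospholamban) and the main calcium buffers of the fiber (*Casq1*, *Casq2*, *Srl* and *Pvalb*). They were taken by symbol from the deposited table, and all 9 were found among its 55401 genes. Bulk RNA-seq had been performed on whole TA (tibialis anterior) muscles of male mice aged 6 mo, 4 of them WT on the C57/Bl6 strain and 4 mdx5cv on the same strain. The mdx5cv line is a mouse model of Duchenne muscular dystrophy with a mutation in *Dmd*, the dystrophin gene, in every cell of the animal. The labels name no treatment for either group. *Dmd* itself was lower in mdx5cv, with normalized counts from 3461 to 4400 against 6169 to 8155 in WT (log2 fold change -0.81, standard error 0.12, adjusted p = 0.000177 from limma).

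In a muscle fiber, SERCA pumps return calcium from the cytosol to the sarcoplasmic reticulum at the cost of ATP, which ends each contraction. SERCA1 is the pump of fast fibers and SERCA2 that of slow fibers and the heart, with a second form of SERCA2 in most other cells, whereas SERCA3 is found mainly in blood and endothelial cells. Sarcolipin, phospholamban and myoregulin (*Mrln*) are single-pass peptides that bind SERCA in the membrane and lower its uptake of calcium. Calsequestrin (*Casq1* in fast fibers, *Casq2* in slow fibers and the heart) holds calcium in the lumen, sarcalumenin (*Srl*) is a luminal glycoprotein that binds calcium and SERCA, and parvalbumin (*Pvalb*) binds calcium in the cytosol of fast fibers. Handling of calcium is a long-standing topic in dystrophin-deficient muscle, and the comparison asks which of these transcripts differ between dystrophic and WT muscle.

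The small inhibitors are encoded by open reading frames short enough to show whole, and they are given here because *Sln* rose, *Mrln* fell and *Pln*, which did not pass the test, had no overlap of the groups. Each frame lies within 1 exon and is read from the GENCODE M21 transcript on GRCm38, plus strand, 5′ to 3′ with its stop codon. *Sln* has 31 codons before the stop (chr9:53853473-53853568), *Pln* has 52 (chr10:53343864-53344022) and *Mrln* has 46 (chr10:70219496-70219636). Capitals mark the longest run of codons with the same meaning in *Sln* and *Pln*, codons 8 to 12 of *Sln* and 31 to 35 of *Pln*, in which 13 of 15 bases are identical. No such run was marked in *Mrln*.
Sln: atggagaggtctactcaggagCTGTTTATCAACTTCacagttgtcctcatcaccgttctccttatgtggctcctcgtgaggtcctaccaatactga
Pln: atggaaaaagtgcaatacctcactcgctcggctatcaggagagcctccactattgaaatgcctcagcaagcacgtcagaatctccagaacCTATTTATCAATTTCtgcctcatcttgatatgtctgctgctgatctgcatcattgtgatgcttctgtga
Mrln: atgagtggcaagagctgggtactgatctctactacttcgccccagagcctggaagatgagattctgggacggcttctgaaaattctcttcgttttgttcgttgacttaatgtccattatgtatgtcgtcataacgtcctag

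The normalized count is the number of reads of a gene divided by a size factor of the muscle, and between 13175524 and 14921057 reads per muscle were recovered from these values. The test was limma on log2(normalized count + 1), fitted to the 13677 genes whose mean over the 8 muscles was 10 or more. Benjamini-Hochberg adjustment covered all of them, and a gene is said to have risen or fallen where its adjusted p was under 0.05. Between 25.3% and 38.7% of the reads of a muscle were mitochondrial, with the 3 highest shares in WT, and scaling each muscle to the same total moves the median gene from a log2 fold change of 0.00 to one of 0.36. Levels of different genes are compared only per kb of exon.

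All 9 genes were tested. *Atp2a2* and *Sln* rose in mdx5cv and none of the 9 fell, whereas 20.9% of all genes tested rose and 20.1% fell. The share of the 9 that rose is thus near that of all genes. Both also had a log2 fold change of at least 1, a mark that 10.3% of all genes passed as risers. Without the adjustment, *Pln* and *Srl* had lower values at p under 0.05 in limma. In edgeR none of the 9 fell, and in DESeq2 *Srl* alone did. Of all genes tested, 2681 of 13677 fell in edgeR and 2734 of 19647 in DESeq2. The median log2 fold change of the 9 was 0.04, against 0.00 over all genes. The groups did not overlap for *Atp2a2*, *Sln* and *Pln*, and 40.1% of all genes tested had no overlap.

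**Figure D1:**
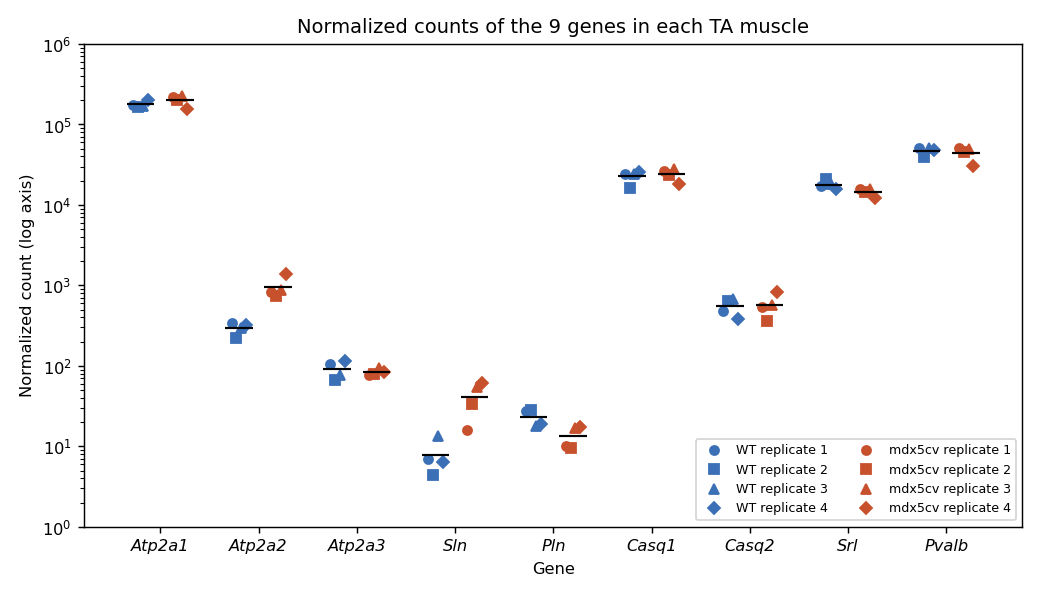
Normalized counts (log axis) of the 9 genes in the 4 WT (blue) and 4 mdx5cv (orange) TA muscles, with 1 symbol for each replicate number and a black line at the group mean. The groups are apart for *Atp2a2*, *Sln* and *Pln*, and replicate 4 of mdx5cv is the highest muscle for *Atp2a2*, *Sln* and *Casq2* and the lowest for *Atp2a1*, *Srl* and *Pvalb*.

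Among the pumps, *Atp2a1* (chromosome 7, 126445858 to 126463108, GRCm38) was by far the most abundant and did not pass the test. Its normalized counts in WT replicates 1 to 4 were 175881, 166637, 170043 and 200959, and in mdx5cv replicates 1 to 4 they were 221697, 203814, 224800 and 154669. In 3 of the mdx5cv muscles it was above every WT muscle and in replicate 4 it was below them all. This gave a log2 fold change of 0.16 (95% interval -0.35 to 0.68, adjusted p = 0.617). With equal totals per muscle in place of the size factors, *Atp2a1* was called higher, at 0.52 with an adjusted p of 0.0137. That setting called 5533 of all 13782 genes tested higher.

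*Atp2a2* (chromosome 5, 122453513 to 122502225) rose about 3.27-fold in its mean. The normalized counts were 342, 222, 296 and 322 in WT and 839, 741, 886 and 1402 in mdx5cv. Even the lowest mdx5cv muscle, replicate 2, was above the highest WT muscle, and replicate 4 was the highest. In limma the log2 fold change was 1.68 (standard error 0.19, adjusted p = 2.02e-05), and it lay between 1.49 and 2.04 over the 20 alternative settings, with an adjusted p of at most 0.000654. The gene-level counts do not separate the muscle form of SERCA2 from the form of other cells.

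*Atp2a3* (chromosome 11, 72961169 to 72993044) was low in both groups. Its normalized counts ranged from 66.9 to 113 in WT and from 76.9 to 93.7 in mdx5cv, the latter lying within the former. With a log2 fold change of -0.10, it did not pass the test (95% interval -0.49 to 0.29, adjusted p = 0.694).

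Per kb of exon, *Atp2a1* made up 99.9% ± 0.0198 of the summed level of the 3 pumps in WT against 99.7% ± 0.155 in mdx5cv (SD, n = 4). The share of *Atp2a2* was 0.111%, 0.0760%, 0.0995% and 0.0915% in the WT muscles and 0.216%, 0.207%, 0.225% and 0.515% in the mdx5cv muscles. Every mdx5cv muscle was thus above every WT muscle, while SERCA2 transcripts remained under 1 in 100 of the pump transcripts. The difference of the means was 0.196 percentage points, with p = 0.0286 in an exact two-sided permutation test, the smallest value that 4 against 4 muscles can give, and 0.05 after adjustment over the 7 shares tested. Without mdx5cv replicate 4 it was 0.122 percentage points. For *Atp2a3* the share went from 0.0332% ± 0.00630 in WT to 0.0276% ± 0.00537 (SD, n = 4, exact permutation p = 0.2), with overlap.

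Of the inhibitors, *Sln* (chromosome 9, 53850164 to 53854560) rose most in its mean, 5.35-fold. It was scarce: WT replicates 1 to 4 had 6, 4, 12 and 6 reads, and the mdx5cv replicates had 17, 36, 61 and 76. As normalized counts these are 6.88, 4.39, 13.3 and 6.36 against 15.7, 34.0, 54.9 and 60.7. The groups did not overlap, but mdx5cv replicate 1 lay close to WT replicate 3. *Sln* averaged 7.72 in WT and 41.3 in mdx5cv, so it reached the mean of 10 needed for the test only through mdx5cv. With no filter on low values its adjusted p from limma was 0.000529. Its log2 fold change in limma was 2.21 (standard error 0.42, adjusted p = 0.00116). It depended on the pseudocount, being 2.35 with 0.1 and 1.45 with 10, and its adjusted p was at most 0.00524 in the 19 alternative settings that tested it.

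*Pln* (chromosome 10, 53337667 to 53345987) had normalized counts of 27.5, 28.5, 17.7 and 19.1 in WT and 10.2, 9.43, 17.1 and 17.6 in mdx5cv, from 10 to 26 reads per muscle. Every mdx5cv muscle was below every WT muscle, by a narrow margin between WT replicate 3 and mdx5cv replicate 4. It did not pass the test, at -0.75 on the log2 scale (standard error 0.30, 95% interval -1.40 to -0.11, adjusted p = 0.0595). In 3 of 19 alternatives it did, with the lowest adjusted p at 0.0317 and the highest at 0.306. Its exons share 1644 bases with *Gm47644* on the opposite strand, and whether the counting used the strand is not stated. *Gm47644* had a log2 fold change of -0.26 (adjusted p = 0.572).

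The other peptides of the kind gave 1 further call. *Mrln* fell, with normalized counts of 115, 158, 144 and 179 in WT and 108, 82.1, 92.7 and 72.7 in mdx5cv, which did not overlap (log2 fold change -0.73, standard error 0.17, adjusted p = 0.00384). *Strit1*, whose peptide DWORF binds SERCA and relieves its inhibition, had at most 1 read in any muscle and was not tested. Per kb of exon, *Mrln* held a share of the summed level of *Sln*, *Pln*, *Mrln* and *Strit1* that was 89.5% ± 2.81 in WT against 67.2% ± 14.2 in mdx5cv (SD, n = 4). The share of *Sln* was 4.65%, 2.26%, 7.28% and 2.95% in WT and 11.1%, 26.1%, 32.0% and 39.3% in mdx5cv. The groups did not overlap in either share, though *Mrln* in mdx5cv replicate 1 (85.4%) lay close to WT replicate 1 (86.5%) (exact permutation p = 0.0286 for each, 0.05 after adjustment over the 7 shares). *Mrln* therefore stayed the largest of these transcripts in all 4 mdx5cv muscles, at 52.5% in replicate 4. The sizes depend on the length used, since with the longest transcript of each gene in place of all its exons the difference in the share of *Sln* goes from 22.8 to 11.8 percentage points and that of *Mrln* from -22.3 to -12.0, both still without overlap.

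**Figure D2:**
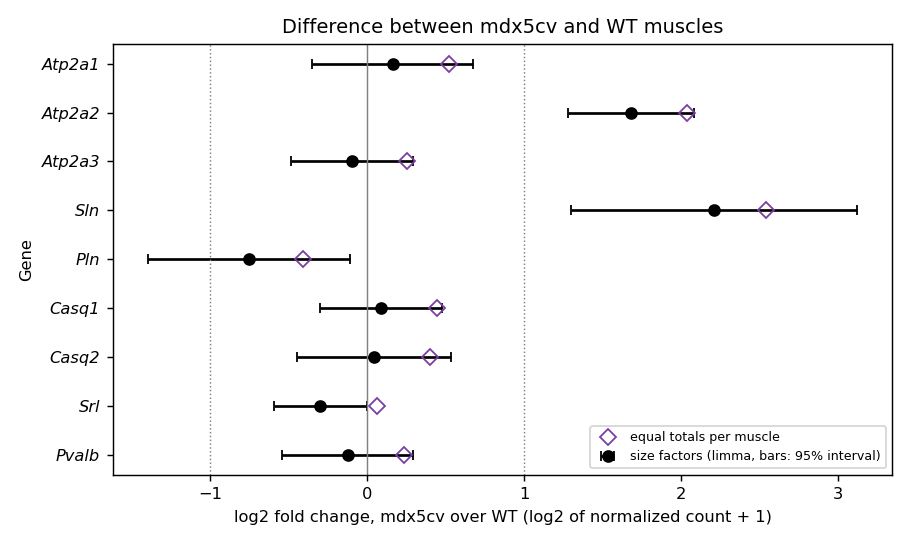
The log2 fold change of each gene in mdx5cv over WT, with black circles for the deposited size factors (bars are 95% intervals from limma) and open diamonds for equal totals per muscle, and dotted lines at -1 and 1. *Atp2a2* at 1.68 and *Sln* at 2.21 lie beyond 1 under the size factors, and equal totals move every gene to the right, taking *Atp2a1* from 0.16 to 0.52.

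The luminal buffers had smaller differences. *Casq1* (chromosome 1, 172209894 to 172219868) had normalized counts from 16456 to 25682 in WT and from 18391 to 27618 in mdx5cv. WT replicate 2 was lowest and the groups overlapped (log2 fold change 0.09, 95% interval -0.30 to 0.47, adjusted p = 0.735). Under equal totals *Casq1* was at 0.44 with an adjusted p of 0.0369. *Casq2* (chromosome 3, 102086415 to 102146514) ranged from 386 to 676 in WT and from 361 to 827 in mdx5cv, and its log2 fold change was 0.04 (95% interval -0.44 to 0.53, adjusted p = 0.896). *Casq2*, found beside SERCA2 in slow fibers and the heart, was thus not called, and whether it moved with *Atp2a2* was not tested. Per kb, *Casq2* made up 1.78% ± 0.724 of the 2 calsequestrins in WT against 1.77% ± 0.907 in mdx5cv (SD, n = 4), with its highest value of 3.11% in mdx5cv replicate 4.

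*Srl* (chromosome 16, 4480216 to 4541816) was 16960.3, 20705, 18148 and 15591 in WT and 15651, 14411, 15619.8 and 12332 in mdx5cv. Only mdx5cv replicates 1 and 3 overlapped with WT, both through WT replicate 4. *Srl* did not pass the test at a log2 fold change of -0.30 (95% interval -0.59 to -0.00, adjusted p = 0.0976). DESeq2 called it lower, with an adjusted p of 0.0466, and under equal totals it was at 0.06.

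*Pvalb* (chromosome 15, 78191114 to 78206400), the cytosolic buffer, had normalized counts of 50738, 39289.6, 50795 and 47611 in WT and 50632, 44858, 49534 and 30246 in mdx5cv. Replicate 4 of mdx5cv was the lowest muscle and the others lay within the WT range. It was not called, at a log2 fold change of -0.13 (95% interval -0.54 to 0.29, adjusted p = 0.633).

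Per kb of exon the order of mean levels in WT was *Atp2a1*, *Pvalb*, *Casq1*, *Srl*, *Casq2*, *Atp2a2*, *Atp2a3*, *Pln* and *Sln*. *Atp2a1* (51303 ± 4466 per kb) and *Pvalb* (45253 ± 5207) overlapped, as did *Pln* (8.41 ± 2.03) and *Sln* (5.86 ± 2.92; SD, n = 4), and all other neighbours in that order were apart. In mdx5cv *Sln* (31.4 ± 15.6) moved from the ninth to the seventh place, where it overlapped with *Atp2a3* (15.7 ± 1.44). *Atp2a2* (159 ± 48.7) came to overlap with *Casq2* (210.3 ± 70.2; SD, n = 4), where in WT it had been 48.6 ± 8.64 against 201 ± 50.0.

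Apart from the 1 added to each normalized count, which matters for the scarce *Sln* and *Pln*, ratios between 2 genes in the same muscle do not depend on the size factor. For 10 ratios chosen among the 9 genes, the difference of the mean log2 ratio was tested by exact two-sided permutation over the 8 muscles, and none had an adjusted p under 0.05. In 4 of them the groups did not overlap, each with an exact permutation p of 0.0286 and 0.0714 after adjustment. The former is the smallest p that 4 against 4 muscles can give. No ratio could therefore pass unless more of the 10 had reached it, and the lack of a call says little. *Atp2a2* over *Atp2a1* was higher by 1.52 on the log2 scale, from -9.25 ± 0.230 to -7.73 ± 0.631 (SD, n = 4). *Pln* over *Atp2a2* differed by -2.43 and *Pln* over *Sln* by -2.96. The latter was -3.14 with a pseudocount of 0.1 and -1.95 with 10. *Pvalb* over *Atp2a1* differed by -0.29, a small difference that held in all 4 mdx5cv muscles. *Sln* over *Atp2a1* differed by 2.04 with overlap through mdx5cv replicate 1 (exact permutation p = 0.0571, adjusted p = 0.0952). *Sln* over *Atp2a2* differed by 0.52 (exact permutation p = 0.371). *Casq1* over *Atp2a1* was -2.99 ± 0.243 in WT against -3.07 ± 0.0391 in mdx5cv (SD, n = 4, exact permutation p = 0.6), and lay between -3.12 and -3.02 in the 4 mdx5cv muscles.

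**Figure D3:**
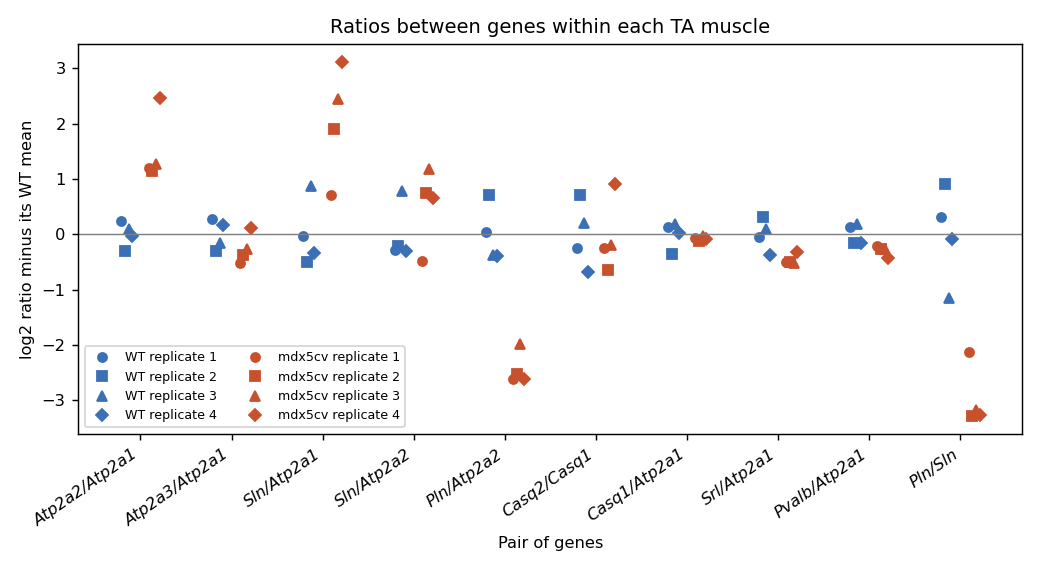
The log2 ratio of 10 pairs of genes in each TA muscle, minus the WT mean of that ratio, with WT in blue and mdx5cv in orange and 1 symbol for each replicate number. The groups are apart for *Atp2a2*/*Atp2a1*, *Pln*/*Atp2a2*, *Pvalb*/*Atp2a1* and *Pln*/*Sln*, and mdx5cv replicate 4 stands above the others in *Atp2a2*/*Atp2a1*.

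Markers of several fibers and cells were read beside these genes, and whether they moved together was not tested. Markers of regenerating fibers rose in 6 of 6 genes, with summed normalized counts from 118 to 143 in WT and from 2175 to 8502 in mdx5cv. Of these, *Mymk*, *Mymx* and *Chrng* averaged at most 0.265 in WT. They reached the mean of 10 needed for the test only through mdx5cv, so only a rise could be called. Of all genes tested, 20.9% rose and 20.1% fell. Of 7 slow fiber markers 3 rose and 2 fell, with sums from 502 to 564 in WT and from 496 to 1212 in mdx5cv. The risers were the troponin genes *Tnnt1*, *Tnni1* and *Tnnc1*, which immature fibers also express. The fallers were *Myl3*, a slow myosin light chain (log2 fold change -3.56, adjusted p = 0.000326, from 229 to 459 in WT and from 4.63 to 52.2 in mdx5cv), and *Myh7b* (-1.40, adjusted p = 0.0171, with overlap). *Myh7*, the slow myosin heavy chain, was not called (log2 fold change 1.47, adjusted p = 0.111). It was 33.2, 13.2, 28.7 and 122 in WT replicates 1 to 4 and 19.5, 125, 176 and 230.1 in mdx5cv replicates 1 to 4. Within mdx5cv *Sln* had the same order over the 4 muscles and *Atp2a2* did not, being lowest in replicate 2. Within WT the orders of *Myh7* and *Sln* differed, and unlike *Sln* the groups overlapped for *Myh7*. Of 7 fast fiber markers 4 fell and none rose, with sums from 721890 to 919974 in WT and from 530712 to 849008 in mdx5cv. In bulk muscle, a change in the number of fibers of a kind and a change in RNA per fiber cannot be told apart.

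Among other cells, 5 of 6 macrophage markers rose and 1 fell (sums from 383 to 638 in WT and from 3278 to 7963 in mdx5cv), and 4 of 5 fibroblast markers rose and none fell (5196 to 7870.2 and 17446 to 31390.2). The macrophage marker *Itgam* averaged 3.88 in WT and 52.4 in mdx5cv, and it too was tested only through its mdx5cv values. All 6 endothelial markers fell (2940 to 3510.3 and 1732 to 2209), beside *Atp2a3*, which did not pass the test. The summed level of T lymphocyte markers was 24.1 to 49.3 in WT and 34.3 to 52.8 in mdx5cv, with 1 of 6 tested. That was *Cd247*, which was not called (19.7 to 47.0 in WT and 5.59 to 19.8 in mdx5cv). *Cd3e*, *Cd4* and *Cd8a* were too low to be tested and had no overlap, with *Cd3e* and *Cd8a* at 0 in every WT muscle and at most 7.19 and 5.66 in mdx5cv, and *Cd4* at 0 to 3.29 against 9.26 to 26.4. *Cd3d* (0 to 1.10 in WT and 0 to 3.20 in mdx5cv) and *Cd3g* (0 to 2.29 and 1.85 to 8.10) were also too low and overlapped. Of all genes tested, 40.1% had no overlap. The summed level of platelet markers was 21.01 to 34.4 in WT and 62.3 to 153 in mdx5cv, with 1 of 2 tested genes higher. Of the smooth muscle markers 2 of 4 tested fell, *Myh11* (583 to 316 in the mean) and *Lmod1* (83.7 to 44.0), and none rose. Their sum (27111 to 29539 and 26704 to 29583) was mostly *Des*, at 25473 to 28449 in every muscle, which skeletal fibers also express. Of the heart markers, *Nppa* had no read and *Myl7* at most 1 in any muscle, and *Myh6*, the 1 gene tested, fell. The part of these cells in the values of *Atp2a2*, *Sln* and *Atp2a3* was not tested.

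**Figure D4:**
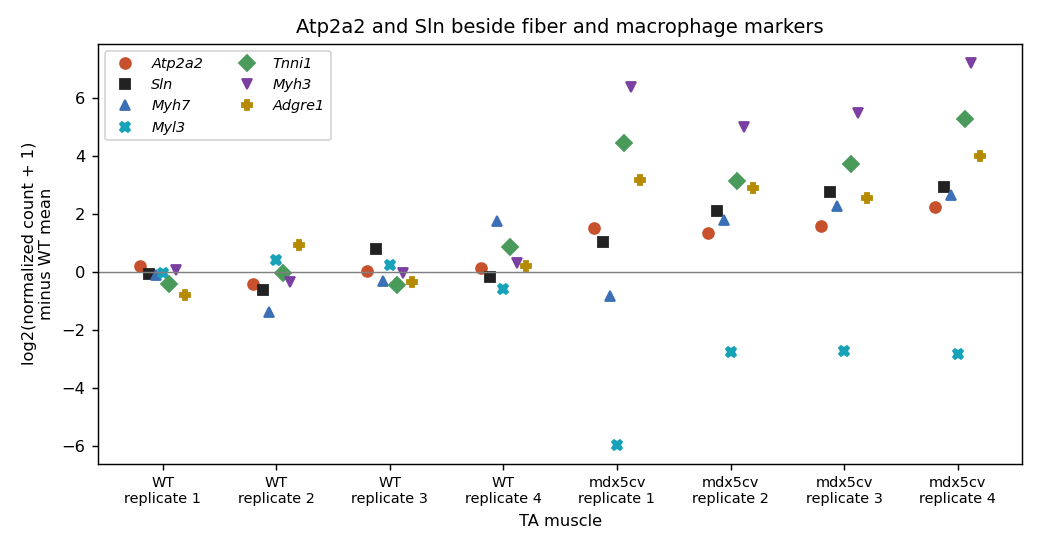
The log2(normalized count + 1) of *Atp2a2*, *Sln*, *Myh7* and *Myl3* (slow fibers), *Tnni1* (slow and immature fibers), *Myh3* (regenerating fibers) and *Adgre1* (macrophages) in each TA muscle, minus the WT mean of the gene. All but *Myh7* and *Myl3* are above every WT muscle in all 4 mdx5cv muscles, *Myl3* is below every WT muscle in all 4, and *Myh7* is at a normalized count of 19.5 in mdx5cv replicate 1, where *Sln* has its lowest mdx5cv value of 15.7.

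The profiles most like those of the 2 risers were sought among the 7641 genes that averaged a normalized count of 100 or more, by the root mean square difference between log2 deviations from the WT mean over the 8 muscles. For *Atp2a2* the nearest were *Ctsz* (a lysosomal protease, difference 0.12), *Actn1* (an alpha-actinin of non-muscle cells, 0.16) and *Dpysl3* (0.16), with log2 fold changes of 1.61, 1.65 and 1.62. For *Sln* they were *Ckap4* (0.55), *Loxl1* (an enzyme of collagen and elastin crosslinking, 0.56) and *Kcnn3* (a calcium-activated potassium channel, 0.56). Among these 7641 genes *Sln* thus had none as near to it as the 3 nearest were to *Atp2a2*. *Sln* itself was at most 60.7 in any muscle, so genes at its level were not searched, and its few reads add counting error to that distance. Since the distance includes the difference between the groups, the nearest genes must have log2 fold changes like that of the riser. *Actn1*, *Ckap4*, *Loxl1* and *Kcnn3* averaged 90.8, 41.3, 76.6 and 81.5 in WT. They reached the mean of 100 needed for the search only through mdx5cv.

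Of 40 other genes of calcium handling in 6 lists, 31 were tested. In mdx5cv 7 rose, 6 fell and 18 were not called, against 20.9% of all genes that rose and 20.1% that fell, and the median log2 fold change was 0.01. Past a log2 fold change of 1 in size were 3 of them. *Mcub*, a subunit that restrains the mitochondrial calcium uniporter, rose from 3.44, 7.68, 4.42 and 8.47 to 52.8, 27.4, 19.8 and 44.0 (log2 fold change 2.37, standard error 0.37, adjusted p = 0.000297). *Mcub* averaged 6.00 in WT and 36.0 in mdx5cv. It reached the mean needed for the test only through mdx5cv, so only a rise could be called. *Rcn1* and *Rcn3*, calcium-binding proteins of the secretory pathway, rose with log2 fold changes of 1.01 and 1.12.

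By list, the proteins that accompany calsequestrin included 2 that fell, *Asph* (junctin and related products) at -0.51 and *Jsrp1* at -0.43. *Trdn* (triadin) was at -0.39 with an adjusted p of 0.0514, and *Hrc*, a luminal calcium-binding protein, was at 0.10 (adjusted p = 0.608). Of 9 luminal proteins of the endoplasmic reticulum 4 rose and none fell, and *Hsp90b1* and *Calu*, named after their values were seen, are the other 2 at 0.56 and 0.31. Of 3 cytosolic calcium-binding proteins tested, *Calm3* (-0.77) fell and none rose. *Ocm* and *Calb2*, which encode relatives of parvalbumin, had no read in any muscle. Of 6 pumps and exchangers of other membranes, *Slc8a1* (-0.79) and *Atp2b3* (-0.50) fell and *Slc8a3* (0.38) rose. Of 8 genes of mitochondrial calcium transport, *Mcub* and *Slc8b1* (0.89) rose and none fell. The calls on *Jsrp1*, *Calu* and *Atp2b3* held in 12 of 20 alternatives and that on *Slc8a3* in 13, with adjusted p up to 0.728, 0.111, 0.534 and 0.131, and those on *Mrln* and *Asph* held in 19, with adjusted p up to 0.121 and 0.326.

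**Figure D5:**
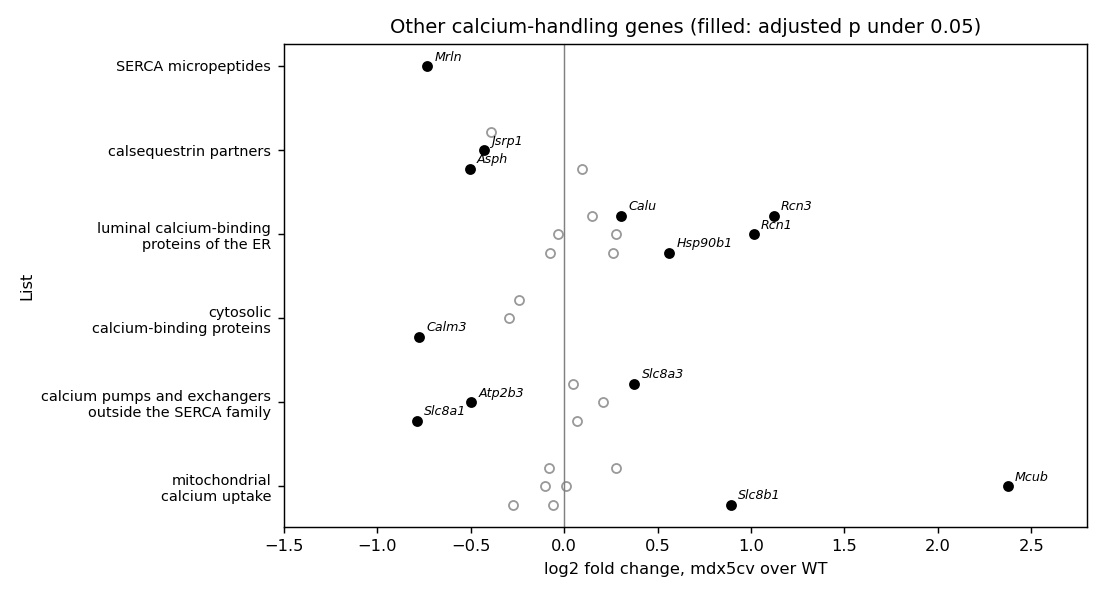
The log2 fold change in mdx5cv over WT of 31 other calcium-handling genes in 6 lists, filled and named where the adjusted p from limma was under 0.05 and open otherwise. *Mcub* lies farthest right at 2.37 and *Slc8a1* farthest left at -0.79, and 7 filled points lie above 0 and 6 below it.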

How the data were processed

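The TA muscle samples, 4 WT and 4 mdx5cv, had been sequenced as total RNA with a stranded kit. The authors deposited a signal per gene, which is a read count divided by a size factor of the sample. Their processing notes name Trim Galore 0.6.4, STAR 2.6.0c, featureCounts and DESeq2 1.26.0 with build mm10, with no settings. Taking the smallest value above 0 of a column as 1 read, 100% of its values came out as whole reads (tolerance 0.01). Since the values are not raw counts, limma 3.58.1 (R 4.3.3, variance trend, two-sided) on log2(normalized count + 1) was the main test, and edgeR 4.0.16 and DESeq2 1.42.0 on recovered reads were alternatives. On simulated counts for the mdx5cv and WT muscles over 13736 genes, limma recovered 99.5% of 200 genes with a simulated log2 fold change of 2. No other size was simulated, so the rate does not apply to smaller differences, such as the -0.75 of *Pln*. Recovery at read levels as low as those of *Sln* and *Pln* was not tested separately. Every simulated gene was given the same variation between replicates, not one estimated from these muscles, so the rate need not hold for them. Lengths are the union of exons in GENCODE M21, which holds 55141 of the gene IDs.

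The genes, lists and tests were chosen with earlier results of these data known. Named are the 9 genes, Dmd, pathway genes past the fold threshold, all matched genes of the peptide and calsequestrin partner lists, and the 3 nearest profiles of each riser. Other list genes, markers and Gm47644 were named after their values were seen. A listed gene is not reported here and was left out of the list counts. No symbol matched for 2 listed peptides, Arln and Erln. The labels do not say that each muscle came from its own mouse, so p-values measure the spread between these samples. Replicates differed beyond sampling noise (chi-square per degree of freedom from 9.56 to 43.2). Same-numbered WT and mdx5cv muscles had correlations of their deviations from 0.0309 to 0.146, and differently numbered ones from -0.148 to 0.0741. These are weak, and whether the numbers mark pairs was not tested. Mature proteins and isoforms were not analysed here.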

Additional observations from a re-analysis of the deposited data

Results flagged for a closer look

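For the 9 genes, 10 ratios and 7 shares, each in both genotypes, the distance from the outermost of 4 muscles to its neighbour was compared with the range of the 4. In 8 of 52 sets the outermost muscle passed Dixon's 95% limit, which about 2.6 would pass by chance, and the sets share genes and are not independent. Replicate 4 of mdx5cv stood apart in 4 of them, with a log2 ratio *Atp2a2*/*Atp2a1* of -6.78 (the others from -8.10 to -7.99), a log2 ratio *Srl*/*Atp2a1* of -3.65 (others from -3.85 to -3.82), a share of *Atp2a2* among the pumps of 0.515% (others from 0.207% to 0.225%) and a share of *Atp2a1* of 99.45% (others from 99.75% to 99.77%). In WT replicate 2, *Casq1* had a log2 normalized count of 14.01 (others from 14.56 to 14.65). WT replicate 3 had a log2 ratio *Sln*/*Atp2a2* of -4.38 (others from -5.46 to -5.37), which rests on 12 *Sln* reads. In mdx5cv replicate 3 the log2 ratio *Pln*/*Atp2a2* was -5.61 (others from -6.24 to -6.15), and in mdx5cv replicate 1 the log2 ratio *Pln*/*Sln* was -0.58 (others from -1.74 to -1.63). The cause of these was not tested.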

How the results depend on the processing

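*Atp2a2* kept its direction and its call in all 20 alternatives and *Sln* in the 19 that tested it. Where a gene had to reach 10 normalized counts in all 8 muscles, *Sln* and *Pln* were left out of the test, so that 1 of the 9 genes rose. In that setting 2135 of all 11784 genes tested rose. Under equal totals 4 of the 9 rose, with *Atp2a1* at 0.52 and *Casq1* at 0.44, but 5533 of all 13782 genes tested also rose in that setting. The number of the 9 that fell was 1 with centring on the median (*Pln*, -0.85), without the variance trend (*Pln*, -0.75) and in DESeq2 (*Srl*, -0.30). Over all genes tested, 3469 of 13677 fell with centring, 2465 of 13677 without the trend and 2734 of 19647 in DESeq2. Leaving out each muscle in turn gave 2 risers and from 0 to 1 fallers, the latter being *Pln* without mdx5cv replicate 4 (-0.88). In these fits from 2319 to 2906 of all genes rose and from 2243 to 2618 fell. Without mdx5cv replicate 4, 2290 of 13542 fell. Genes that were not called changed sign. *Atp2a3* was at 0.26, *Pvalb* at 0.23 and *Srl* at 0.060 under equal totals, and without mitochondrial genes in the totals the first pair were at 0.11 and 0.086. Centring put *Casq1* at -0.0095 and *Casq2* at -0.052. With each muscle left out, *Atp2a3* ranged from -0.23 to 0.019, *Casq1* from -0.062 to 0.21, *Casq2* from -0.15 to 0.25 and *Pvalb* from -0.21 to 0.043. The difference in *Casq2*/*Casq1* then ranged from -0.36 to 0.20 and that of the *Casq2* share from -0.459 to 0.302 percentage points. That of the *Atp2a2* share ranged from 0.122 to 0.224 and of the *Atp2a1* share from -0.219 to -0.113. The *Mrln* share without division by length differed by -19.9 points (exact permutation p = 0.0571). *Sln*/*Atp2a2* was at -0.20 with a pseudocount of 10. Of the other calcium-handling genes, 16 rose and 2 fell under equal totals, where 5533 of all 13782 genes rose and 815 fell. Without mitochondrial genes in the totals 13 of these calcium-handling genes rose, beside 4193 of all 13744 genes tested. With a muscle left out 5 to 8 of them rose and 4 to 6 fell. With the replicate number as a block, 2 of the 9 genes rose and 0 fell, 7 of the other genes rose and 8 fell, and no call on the 9 changed. Of all 13677 genes tested with the block, 2880 rose and 2736 fell. An exact paired test of a ratio over 4 pairs cannot pass the threshold. The cause of these changes was not tested. *Sln* and *Pln* rest on 76 reads or fewer per muscle, which limits their precision.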
